A study of Rattus norvegicus with 9 samples.

Results

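Expression of the genes for fatty acid and triglyceride synthesis was followed by RNA sequencing in rat pXEN cells, the cultured stem cells of the primitive extraembryonic endoderm, grown in 3 media. From a list of 42 named genes, members were taken where the deposited count tables held at least 10 gene-strand reads in 3 or more libraries. This left 34 genes of the 42, out of 9031 genes that met the same count rule and 17315 genes listed in all. The list names 39 genes that the tables hold, whereas Scd, Hacd2 and Plin3 were not found in them by name. RefSeq gives Scd1 as a synonym of Scd, so Scd may be the gene counted as Scd1. Of the 34 genes, 33 passed the filter of the statistical fit, and the exception was Acacb.

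All 9 libraries, 3 for each medium, were made from RX1 cells of WKY rats, so every value below describes a single line. T cultures grew on plates coated with 100 ng/ml fibronectin, in DMEM/MCDB medium with LA-BSA, ITS, ascorbic acid, β-mercaptoethanol, 2% FBS, the glucocorticoid dexamethasone at 0.5 µM, and Pdgf, Egf and Lif at 10 ng/ml each. LPE cultures grew on 10 µg/ml collagen I, in DMEM/F12 and Neurobasal with N2, B27, β-mercaptoethanol and the same 3 factors at the same dose. CPE cultures had the LPE medium with 1 µM Chir99021, an inhibitor of the kinase Gsk3, in place of Lif. Between T and the other media the coating, basal medium, supplements, serum and dexamethasone all differ, and their parts cannot be told apart. Between LPE and CPE, Lif and Chir99021 change together. Animal, passage and culture of each library are not stated in the labels, so the p-values refer to library-to-library spread alone, and that spread may be technical.

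Fatty acid synthesis starts from citrate, which ATP citrate lyase splits to acetyl-CoA in the cytosol. Acetyl-CoA carboxylase turns part of it into malonyl-CoA, and fatty acid synthase builds palmitate from both with reducing power from NADPH. Desaturases and elongases then modify the chain, acyl-CoA synthetases activate it, and acyltransferases, lipins and Dgat enzymes place it on glycerol to form triglyceride, which is stored in droplets coated by perilipins. In liver and fat, the transcription factor encoded by Srebf1 is known to drive much of this pathway, and sterols and insulin act through it. The yolk sac endoderm, to which these stem cells relate, is known for taking up, remaking and exporting lipid for the embryo.

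Because the results below include members that moved in the same direction, the promoter sequences were inspected for letters bound by factors known to work with Srebf1 and Srebf2. RefSeq windows on the rat build GRCr8, from 250 bases before to 50 bases after the annotated start, were found for 29 of the 34 genes, 28 by symbol and 1 (Scd1) by synonym. Fasn, Acaca, Elovl6, Dgat1 and Dgat2 had no entry. The 4 stretches below are shown because they come from the 4 genes that were higher in both LPE and CPE than in T and hold the NF-Y letters CCAAT. Each is written 5′ to 3′ on the strand of its gene, and the capitals mark CCAAT or, in Elovl5, its reverse complement ATTGG.
Acly: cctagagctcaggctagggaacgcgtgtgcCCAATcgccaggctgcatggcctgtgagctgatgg
Fads1: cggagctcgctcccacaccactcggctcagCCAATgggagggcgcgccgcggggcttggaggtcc
Elovl5: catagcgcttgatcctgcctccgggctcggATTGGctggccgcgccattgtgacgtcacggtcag
Lpin1: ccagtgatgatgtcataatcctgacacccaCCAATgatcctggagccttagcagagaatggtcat

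The Acly stretch lies at chr10:85963668-85963732 on the minus strand and that of Lpin1 at chr6:45108963-45109027 on the minus strand. Those of Fads1 (chr1:216252541-216252605) and Elovl5 (chr8:87671066-87671130) lie on the plus strand. The capitals begin 71 bases before the start of Acly, 121 before Fads1, 68 before Elovl5 and 55 before Lpin1. Searched on both strands, CCAAT was in 13 of the 29 windows (44.8%) against 37.5% of all 33469 windows in the table. It was in 4 of the 8 matched genes that were higher in both media (50.0%) and in 9 of the 21 other members (42.9%). The windows of the whole table were not limited to genes counted here. The Sp1 letters GGGCGG were in 17 of 29 windows (58.6%) against 33.1% of all. They were in 5 of those 8 genes (62.5%) and in 12 of the 21 other members (57.1%), so for both motifs the 8 genes lay near the other members. The E-box letters CACGTG were in 3 of 29 windows (10.3%, in Elovl5, Hacd3 and Plin2) against 6.42% of all. The sterol element core TCACNCCAC was in 0 of 29 windows against 1.12% of all. The searches describe the letters of 1 annotated window per gene, and no motif searched contains another.

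The libraries held between 1698764 and 2161228 gene reads in T, 3119049 and 3233526 in LPE, and 3127352 and 4418465 in CPE. Reads that mapped to several places, which count for no gene, made up 64.9% to 67.6% of all reads in T and from 51.7% to 59.9% in the other media. The spread between replicate libraries, as chi-square per degree of freedom over genes of moderate count, was 1.916 in T (3380 genes), 13.48 in LPE (2786 genes) and 10.23 in CPE (2603 genes), where counting alone gives about 1. Of 12 markers of primitive and extraembryonic endoderm all were detected in the series, but Cited1 had 0 reads in every LPE library and in CPE library 2. The summed level of the 12 was 8953 to 10000 CPM (reads scaled to library size with TMM factors) in T, 20990 to 24880 in LPE and 11860 to 13620 in CPE. The higher sum in LPE was that of the matrix genes Lama1 and Col4a1, since the other 10 markers summed to 3359 to 3857 CPM in T, 3328 to 3567 in LPE and 2557 to 2830 in CPE. Cells of other types that make or store lipid were hardly seen, with 6 of 7 adipocyte markers and 5 of 8 hepatocyte markers at 0 in every library. The summed adipocyte markers reached 1.395 CPM in T, 3.846 in LPE, and 3.244 CPM in CPE, and those of hepatocytes reached 1.091, 3.73 and 0. Fibroblast markers, of which 5 of 8 were at 0 throughout, summed to 1.395 to 32.43 CPM in T, 0 in LPE and 0 to 6.442 in CPE. Of 6 listed trophoblast markers 3 were at 0 throughout, and the sum was 0.93 to 2.728 CPM in T, 0 to 3.108 in LPE and 12.04 to 28.99 in CPE. In CPE, Elf5 was counted in all 3 libraries, whereas Cdx2 had 28, 0 and 70 reads there and 0 in every T and LPE library. The 3 listed epiblast markers were at 0. The part of the endoderm, fibroblast and trophoblast differences in the results below was not tested.

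Acly, Fasn and the member desaturase genes Scd1, Fads1 and Fads2 were higher in LPE and in CPE than in T. Of the triglyceride assembly genes, Dgat2 and Agpat2 were lower in both media, Lpin1 was higher in both and Agpat1 was higher in CPE. The calls of Agpat2, and that of Lpin1 in CPE, were lost when some single libraries were left out. In LPE against T, 10 of the 33 tested genes rose and 5 fell, and 18 did not pass the test (edgeR's quasi-likelihood F test, called at an adjusted p under 0.05 over 9130 genes). That is 45.5% of the members called, beside 29.7% of all tested genes, with 15% of all genes higher and 14.7% lower. In CPE against T, 14 rose and 4 fell, which is 54.5% of the members beside 32.1% of all genes (16.8% higher, 15.3% lower). In CPE against LPE, 8 were higher and 3 lower in CPE, which is 33.3% of the members beside 17.8% of all genes (9.56% higher, 8.23% lower). The median log2 fold change of the 33 genes was 0.19 in LPE against T and 0.59 in CPE against T, beside -0.03 and -0.01 over all genes, and 0.23 in CPE against LPE beside 0.01. The members were chosen with earlier results of these data known, so their shares and medians describe the list and do not test it. These counts include Mid1ip1 and Elovl7, which passed the filter only through the media where they are high, so their calls follow from that choice. The comparisons of LPE and of CPE with T share the T libraries, so their likeness is not independent. In 22 of the 33 genes at least 1 comparison was called, as in 4159 of the 9130 genes tested. As these are bulk cultures, fewer cells of a kind and less RNA per cell cannot be told apart.

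**Figure D1:**
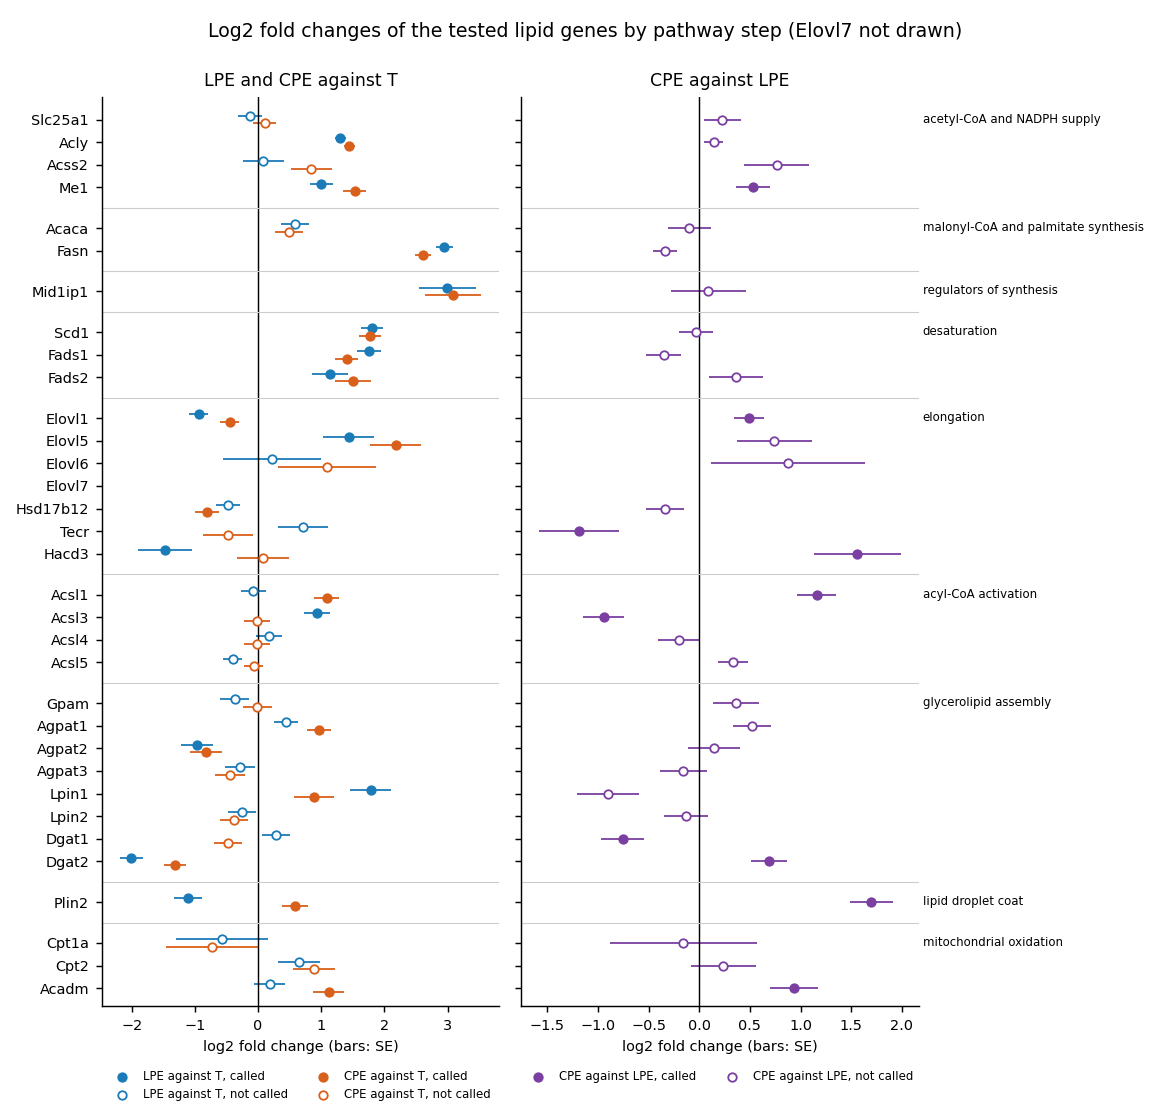
Log2 fold changes (x axis, with SE bars) of the tested genes, in rows by pathway step, for LPE and CPE against T at left and CPE against LPE at right, filled where called. Desaturation genes sit right of 0 against T, glycerolipid genes fall on both sides, and Elovl7, with no counts in LPE, is not drawn.

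In all, 34 genes took 0.3454% to 0.38% of gene reads in T, 0.8029% to 0.8558% in LPE and 0.7262% to 0.8729% in CPE. Their summed level was 3471 to 3811 CPM in T, 8027 to 8601 in LPE and 7151 to 8760 in CPE. These sums count reads, so long transcripts weigh more than short ones. Fasn alone made up 11.26% to 13.93% of the members' reads in T, 41.92% to 46.14% in LPE and 33.58% to 39.12% in CPE. Without Fasn, the T libraries summed to 2987 to 3284 CPM, those of LPE to 4632 to 4684 and those of CPE to 4749 to 5333. T thus still lay below all other libraries, but the gap left to LPE was mostly that of Acly and Scd1. Acly went from 498.5 to 597 CPM in T libraries to between 1318 and 1415 in those of LPE. Scd1 went from 253.9 to 265.2 CPM to between 749.7 and 1001. With these genes, picked after the values were seen, also left out, the LPE sums overlapped T and the CPE sums stayed above T. By step, desaturation genes summed to 329.5 to 358 CPM in T and to between 825.4 and 1304 in the other media, whereas elongation genes summed to 478.9 to 501.5 CPM in T and to between 318 and 411 in the others. Glycerolipid assembly genes summed to 672.8 to 754.6 CPM in T, 549.8 to 652.1 in LPE and 486.7 to 687.4 in CPE, and the T and CPE ranges overlapped. The lower LPE sum was that of Dgat2, at 179.5 to 224.7 CPM in T and 46.8 to 55.94 in LPE. Without Dgat2, picked after the values were seen, the T and LPE ranges overlapped too. Without Elovl1, picked in the same way, the elongation sums of LPE stayed below T and those of CPE overlapped T.

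**Figure D2:**
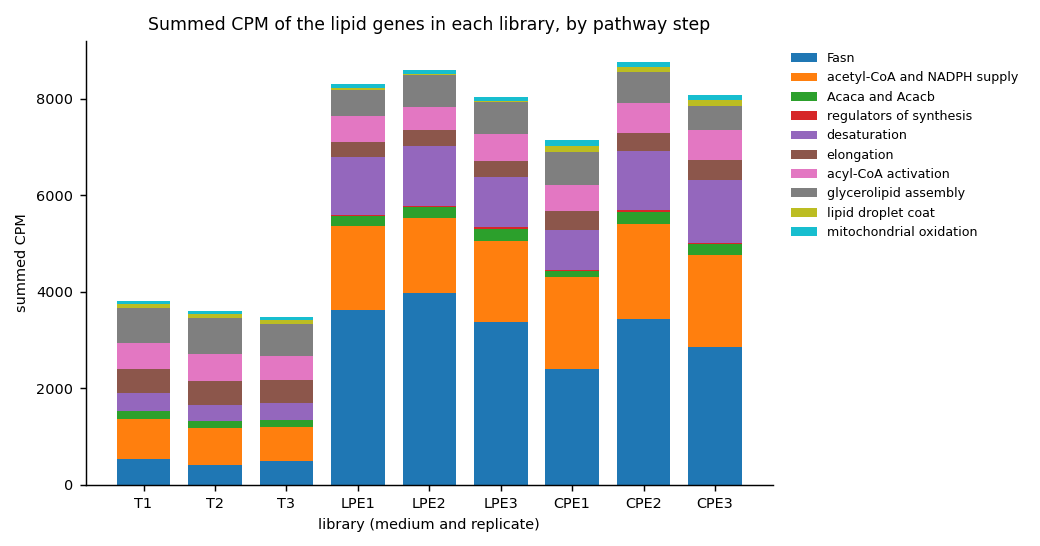
Summed CPM of the 34 genes (y axis) in each library (x axis), stacked by pathway step with Fasn drawn apart at the base. The 3 T libraries reach 3471 to 3811 CPM and the 6 others 7151 to 8760.

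Among the 4 genes that supply acetyl-CoA and NADPH, 2 rose in both media and 2 were not called. Acly encodes ATP citrate lyase, and its level was 597, 575 and 498.5 CPM in T, 1393, 1318 and 1415 in LPE, and 1459, 1542 and 1546 in CPE. Every library of the other media lay above every T library. Acly rose by 1.30 on the log2 scale (SE 0.09, edgeR adjusted p = 1.1e-07) in LPE and by 1.45 (SE 0.09, adjusted p = 2.1e-08) in CPE, each against T. CPE against LPE was not called (0.14, 95% interval -0.08 to 0.36).

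Me1 encodes cytosolic malic enzyme, a source of NADPH. It stood at 87.85, 63.12 and 69.75 CPM in T, 171.3, 131.5 and 138.8 in LPE, and 215.6, 240.1 and 181.4 in CPE, and no library of one medium overlapped another medium. Against T, Me1 rose by 1.00 on the log2 scale (SE 0.18, edgeR adjusted p = 0.00059) in LPE and by 1.53 (SE 0.18, adjusted p = 1.1e-05) in CPE. CPE exceeded LPE by 0.53 (SE 0.17, adjusted p = 0.041). That call was lost on leaving out T library 3, LPE library 2 or 3, or CPE library 1 or 2 (edgeR adjusted p = 0.065 to 0.16). It was also lost with the 6 LPE and CPE libraries alone (0.066) and in limma voom (0.076).

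Slc25a1, the mitochondrial citrate carrier, had 81.8 ± 1.44 CPM in T, 75.02 ± 7.71 in LPE, and 87.9 ± 12.2 CPM in CPE (mean ± SD, n = 3 here and below) and was not called in any comparison. Acss2 makes acetyl-CoA from acetate. It had 60.1 ± 4.01 CPM in T, 63.7 ± 35.1 in LPE, and 108 ± 10.9 CPM in CPE, and its CPE value missed the threshold against T (log2 fold change 0.85, 95% interval 0.05 to 1.64, edgeR adjusted p = 0.058). Acss2 was called there by DESeq2 (0.042), by limma voom (0.0011), with a replicate block (0.043), with no count filter (0.027), with the 6 T and CPE libraries alone (0.001) and without LPE library 1 or 2 (0.0022 to 0.03).

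Palmitate synthesis was led by Fasn, which encodes fatty acid synthase. Its level was 527.1, 405.4 and 483.6 CPM in T, 3617, 3969 and 3365 in LPE, and 2402, 3426 and 2841 in CPE. T lay far below both other media, and LPE and CPE overlapped. Fasn rose by 2.95 on the log2 scale (SE 0.13, edgeR adjusted p = 2.2e-09) in LPE and 2.61 (SE 0.13, adjusted p = 2.4e-09) in CPE. CPE against LPE was -0.34 (95% interval -0.63 to -0.04, edgeR adjusted p = 0.066) and was called lower by DESeq2 (0.014), and by edgeR with no count filter (0.039), with the 6 libraries alone (0.047) and without CPE library 2 (0.02).

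Acaca, which encodes the cytosolic acetyl-CoA carboxylase, did not pass the edgeR test. It had 146 ± 16.8 CPM in T, 220 ± 30.7 in LPE, and 205 ± 71.0 CPM in CPE, where library 1 was at 123.3 CPM and libraries 2 and 3 at 248.9 and 243.2. The log2 fold change in LPE against T was 0.59 (95% interval 0.05 to 1.13, edgeR adjusted p = 0.055), and it was called there by DESeq2 (0.032) and limma voom (0.017). By edgeR it was called there with RLE scaling (0.046), no count filter (0.024) and the 6 libraries alone (0.0085). Leaving out LPE library 1 (0.044) or CPE library 1 (0.0075) also gave a call. In CPE against T, Acaca was called by limma voom (0.0051) and by edgeR without CPE library 1 (0.0033). Acacb, which encodes the carboxylase of the mitochondrial surface, was just inside the count rule with 2, 4 and 3 reads in T, 28, 20 and 0 in LPE, and 0, 10 and 0 in CPE, and it was not tested.

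Regulators of synthesis were scarcely counted apart from Mid1ip1, whose protein is known to stimulate acetyl-CoA carboxylase. Mid1ip1 was at 4.365, 2.896 and 2.79 CPM in T, 27.49, 22.38 and 31.09 in LPE, and 25.66, 35.88 and 24.48 in CPE. T did not overlap the others, and LPE and CPE overlapped. Its log2 fold change was 2.998 (SE 0.45) in LPE and 3.09 (SE 0.45) in CPE, and 0.09 (95% interval -0.82 to 1.00) between CPE and LPE. With 8, 5 and 6 reads in T, Mid1ip1 entered the fit through LPE and CPE, so no p is given for it. Its close relative Thrsp had 0 gene-strand reads in all 9 libraries, which allows up to 1.737 CPM in the shallowest T library (3 counts, counting error only). Mlxipl, which encodes the glucose-sensing factor ChREBP, lay just outside the count rule, with 1, 0 and 0 reads in T, 0 in all of LPE, and 5, 13 and 15 in CPE.

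All 3 tested desaturation genes among the members rose in both media. Scd1 encodes stearoyl-CoA desaturase, which makes oleate from stearate. It was at 265.2, 256 and 253.9 CPM in T, 958.9, 1001 and 749.7 in LPE, and 604.8, 948.9 and 1096 in CPE. All LPE and CPE libraries lay above T and overlapped each other. Scd1 rose by 1.81 on the log2 scale (SE 0.18, edgeR adjusted p = 2.2e-06) in LPE and 1.77 (SE 0.18, adjusted p = 2.1e-06) in CPE, with -0.03 (95% interval -0.44 to 0.38) between them. Scd1 is uncertain as a single gene because the desaturase genes are near copies and reads that fit several places were not counted. Scd2, the other stearoyl-CoA desaturase gene in the tables, rose too, from 392 CPM in T to 1120 in LPE (log2 fold change 1.52, adjusted p = 3.1e-07) and 927 in CPE (1.24, adjusted p = 1.7e-06). Of the other desaturases listed around the pathway, Degs1, of ceramide synthesis, fell in LPE (-1.15, edgeR adjusted p = 0.0016) and in CPE (-0.92, adjusted p = 0.0065), and Fads3 was not called (-1.26 and -1.25, adjusted p = 0.39 and 0.38).

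Fads1 and Fads2 encode the delta-5 and delta-6 desaturases that turn dietary linoleate and linolenate into long polyunsaturated fatty acids. Fads1 was at 60.57, 43.43 and 60.91 CPM in T, 165.3, 197.7 and 194.6 in LPE, and 149.2, 167.8 and 119.2 in CPE. Fads2 was at 32.19, 30.11 and 29.76 CPM in T, 73.2, 40.1 and 90.39 in LPE, and 71.36, 101.1 and 88.9 in CPE. In both genes T lay below all other libraries, with LPE library 2 the lowest of the 6 others for Fads2. On the log2 scale Fads1 rose by 1.75 (SE 0.19, edgeR adjusted p = 6.1e-06) in LPE and 1.40 (SE 0.19, adjusted p = 3.9e-05) in CPE. That of Fads2 was 1.14 (SE 0.29, adjusted p = 0.0067) in LPE and 1.51 (SE 0.29, adjusted p = 0.00084) in CPE. Between CPE and LPE the 95% interval was -0.78 to 0.08 for Fads1 and -0.30 to 1.02 for Fads2, and neither was called.

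**Figure D3:**
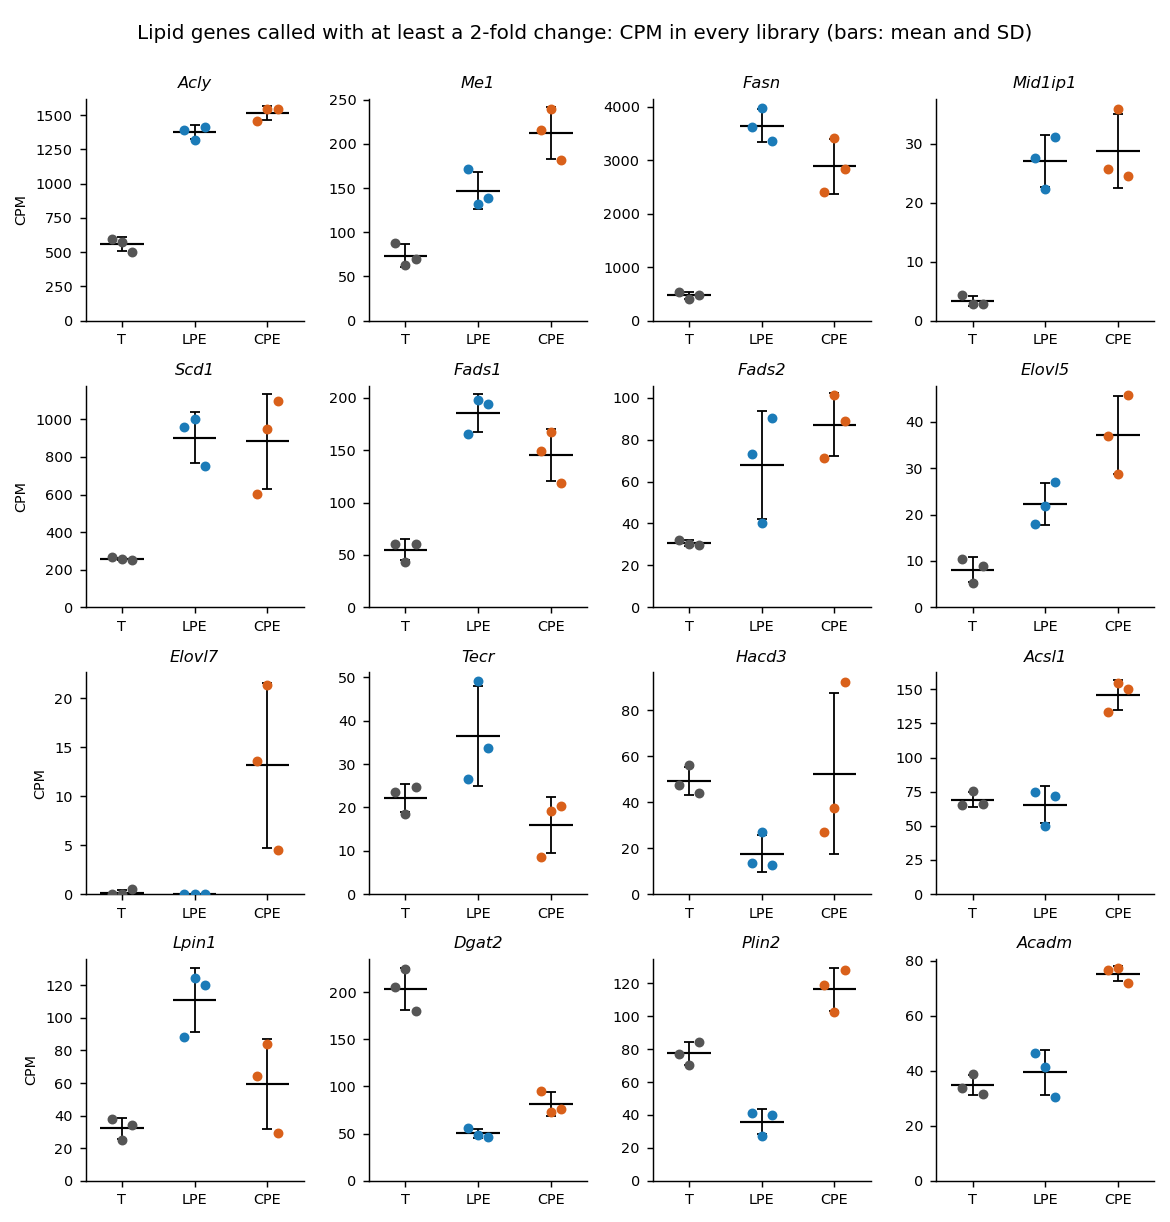
CPM (y axis) in each library of the 16 genes that were called with at least a 2-fold change in some comparison, with the mean and SD of each medium. Fasn rises from 405.4 to 527.1 CPM in T to between 2402 and 3969 in the other media, and Dgat2 goes the other way.

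Elongation showed no common direction, with 1 of 7 tested genes higher and 2 lower in LPE against T, and 2 higher and 2 lower in CPE against T. Elovl5, the elongase that acts on polyunsaturated chains, was at 10.37, 5.212 and 8.835 CPM in T, 17.9, 21.76 and 26.92 in LPE, and 36.86, 28.84 and 45.74 in CPE. The media did not overlap, with T lowest and CPE highest. Elovl5 rose by 1.44 on the log2 scale (SE 0.40, edgeR adjusted p = 0.013) in LPE, a call lost without T library 2 (0.073), and 2.18 (SE 0.40, adjusted p = 0.00067) in CPE. CPE against LPE was not called (0.74, 95% interval -0.16 to 1.64).

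Elovl7, whose product elongates saturated and other long chains, was found almost entirely in CPE. Its counts were 0, 0 and 1 in T, 0 in each LPE library, and 46, 94 and 14 in CPE, and it passed the filter through CPE alone, so no p is given for it. CPE was at least 13.82-fold above LPE, taking 3 counts per LPE library as the floor. Against the single read in T the ratio was 80.69, with a 95% counting interval of 14.27 to 3207. CPE library 3 had the lowest level, 4.51 CPM, and CPE library 2 the highest, 21.35 CPM.

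Elovl1, the elongase of saturated very long chains, fell. It had 244 ± 13.98 CPM in T, 127 ± 1.31 in LPE, and 179 ± 36.3 CPM in CPE, and differed by -0.94 on the log2 scale (SE 0.15, edgeR adjusted p = 0.00025) in LPE against T. The fall in CPE was smaller (-0.45, SE 0.15, adjusted p = 0.031) and was lost on leaving out any T library or CPE library 2 or 3 (0.066 to 0.12). The CPE level was above LPE by 0.49 (SE 0.15, adjusted p = 0.034). That call was lost on leaving out any T or LPE library or CPE library 1 (0.05 to 0.15). It was also lost with the 6 libraries alone (0.11) and in limma voom (0.17). Elovl6, which elongates palmitate to stearate, had 5.27 ± 0.461 CPM in T, 6.15 ± 1.89 in LPE, and 11.3 ± 9.09 CPM in CPE and was not called, with a 95% interval of -0.80 to 2.99 in CPE against T and CPE library 1 alone at 21.82 CPM. Elovl2, Elovl3 and Elovl4 had at most 2 reads in any library.

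The 3 counted enzymes that complete each elongation cycle differed in their pattern. Hacd3, a dehydratase of the cycle, was at 47.47, 56.17 and 44.17 CPM in T, 13.42, 27.04 and 12.5 in LPE, and 27.13, 37.47 and 92.45 in CPE. LPE lay below T without overlap, and CPE spread across T, with library 1 close to the highest LPE value. Hacd3 had -1.48 on the log2 scale (SE 0.43, edgeR adjusted p = 0.017) in LPE against T, lost without T library 2 or LPE library 1 or 3 (0.064 to 0.067). In CPE against LPE it was 1.56 (SE 0.43, adjusted p = 0.018), lost without LPE library 1 or 3 or CPE library 3 (0.064 to 0.15) and with the 6 libraries alone (0.051). Without CPE library 3 the value for Hacd3 was 0.87, so that library decides its size. Reads on the other strand were 5.077% of those at Hacd3, the highest share among the 34 genes.

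Tecr encodes the reductase of the last step of the cycle. Its levels were 23.46, 18.53 and 24.64 CPM in T, 26.53, 49.11 and 33.65 in LPE, and 8.552, 19.08 and 20.29 in CPE, so that LPE lay above both other media. CPE against LPE was -1.19 on the log2 scale (SE 0.39, edgeR adjusted p = 0.048). This call was lost on leaving out any library except LPE library 1 (0.057 to 0.13) and with the 6 libraries alone (0.11). It was also lost in limma voom (0.12), with no count filter (0.054) and with a replicate block (0.051). Hsd17b12, the ketoacyl reductase of the cycle, fell in CPE against T, from 162 ± 8.98 to 92.0 ± 24.2 CPM (log2 fold change -0.81, SE 0.19, adjusted p = 0.004). In LPE it stood at 117 ± 13.8 CPM and was not called (-0.47, adjusted p = 0.074).

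Acyl-CoA synthetases, which activate fatty acids for use, split between LPE and CPE. Acsl1 was at 65.48, 75.28 and 66.03 CPM in T, 74.8, 49.73 and 71.8 in LPE, and 133.6, 154.4 and 150.1 in CPE. CPE stood above both other media, which overlapped. Acsl1 rose by 1.08 on the log2 scale (SE 0.19, edgeR adjusted p = 0.00053) in CPE against T and was 1.16 (SE 0.19, adjusted p = 0.00058) higher in CPE than in LPE, and in LPE against T it was -0.07 (95% interval -0.56 to 0.41).

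Acsl3, an enzyme of the endoplasmic reticulum and of forming droplets, went the other way, at 61.66, 64.28 and 59.05 CPM in T, 131.7, 93.87 and 126.9 in LPE, and 58.39, 72.68 and 51.54 in CPE. Here LPE stood above both other media, which overlapped. Its log2 fold change was 0.93 (SE 0.21, edgeR adjusted p = 0.0033) in LPE against T and -0.95 (SE 0.20, adjusted p = 0.0043) in CPE against LPE, with -0.01 (95% interval -0.53 to 0.50) in CPE against T. The ratio of Acsl1 to Acsl3 reads, chosen after the values were seen, not corrected for length and given with no test, was 1.062 to 1.171 in T, 0.5298 to 0.568 in LPE and 2.125 to 2.912 in CPE.

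Neither Acsl4 nor Acsl5 was called by edgeR in the 9-library fit. Acsl4, which prefers arachidonate, had 120 ± 12.7 CPM in T, 136 ± 18.5 in LPE, and 118 ± 37.4 CPM in CPE. Acsl5 had 283 ± 33.0 CPM in T, 214 ± 37.3 in LPE, and 269 ± 26.7 CPM in CPE, with a log2 fold change of -0.40 (95% interval -0.76 to -0.04, edgeR adjusted p = 0.052) in LPE against T. Acsl5 was called there with no scaling factors (0.045), upper quartile scaling (0.047), no count filter (0.046) and either-strand reads (0.049), and without LPE library 3 or CPE library 1 (0.014 to 0.049), and it was called higher in CPE than in LPE without LPE library 3 (0.039). Acsl6, a synthetase listed around the pathway, had 4, 1 and 7 reads in T, 89, 109 and 69 in LPE, and 0, 2 and 6 in CPE, and it entered the fit through LPE alone.

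**Figure D4:**
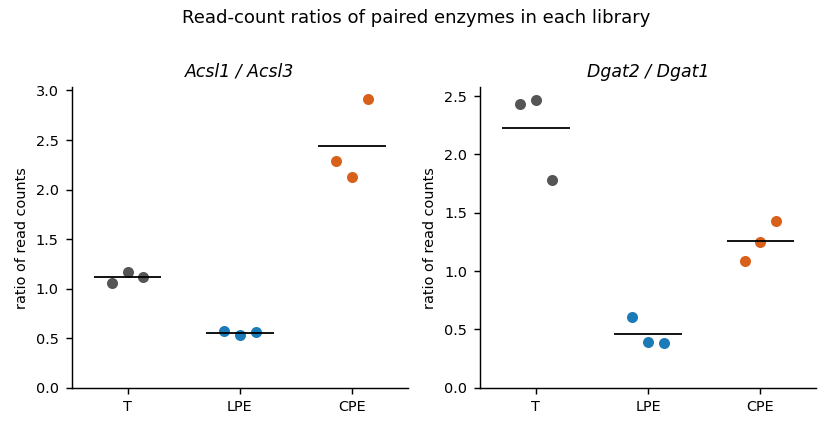
Ratio of read counts (y axis) within each library for Acsl1 over Acsl3 and Dgat2 over Dgat1, with a line at the mean of each medium. Acsl1 over Acsl3 is 1.062 to 1.171 in T, 0.5298 to 0.568 in LPE and 2.125 to 2.912 in CPE.

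Glycerolipid assembly also had no common direction. In LPE against T, 1 of 8 tested genes rose, 2 fell and 5 were not called, and in CPE against T the counts were 2, 2 and 4. Lpin1 encodes a phosphatidate phosphatase that makes diacylglycerol, and it was at 37.65, 24.9 and 33.94 CPM in T, 88.54, 124.6 and 120.2 in LPE, and 64.58, 83.81 and 29.63 in CPE. LPE lay above both other media, and CPE library 3 fell within the T range. Lpin1 rose by 1.78 on the log2 scale (SE 0.33, edgeR adjusted p = 0.00068) in LPE against T. In CPE against T it was 0.89 (SE 0.32, adjusted p = 0.048), lost without any T library, LPE library 3 or CPE library 1 or 2 (0.059 to 0.26). That call was also lost with a replicate block (0.082), upper quartile scaling (0.052) and either-strand reads (0.05). CPE against LPE was -0.90 (95% interval -1.65 to -0.15, adjusted p = 0.054). Lpin1 was called lower there by DESeq2 (0.039) and limma voom (0.038). By edgeR it was called with no count filter (0.023) and without LPE library 1 or CPE library 2 (0.025 to 0.048).

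Lpin2, another lipin, was not called, at 77.1 ± 12.7 CPM in T, 64.8 ± 11.7 in LPE, and 59.0 ± 4.82 CPM in CPE. Gpam encodes the mitochondrial glycerol-3-phosphate acyltransferase of the first step, and it too was not called, at 69.1 ± 6.36, 53.3 ± 6.89 and 68.6 ± 17.02 CPM. The Agpat enzymes of the second step, which make phosphatidate, diverged. Agpat1 rose in CPE against T, from 79.6 ± 9.81 to 155 ± 18.0 CPM (log2 fold change 0.97, SE 0.19, edgeR adjusted p = 0.0012), and was at 108 ± 24.0 CPM in LPE, not called against T (0.45, adjusted p = 0.096). The either-strand count of Agpat1 differed from its gene-strand count by -7.774%, as can happen where another gene overlaps, so its value is uncertain.

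Agpat2 fell in both media. It had 67.1 ± 4.53 CPM in T, 34.3 ± 7.29 in LPE, and 37.8 ± 5.70 CPM in CPE, and differed by -0.97 on the log2 scale (SE 0.26, edgeR adjusted p = 0.0097) in LPE, lost without T library 3 (0.056). In CPE it was -0.82 (SE 0.26, adjusted p = 0.022), lost on leaving out any T library or CPE library 1 or 3 (0.052 to 0.1). Agpat3 was not called by edgeR in the 9-library fit, at 100 ± 9.70 CPM in T, 81.6 ± 10.99 in LPE, and 73.1 ± 25.1 CPM in CPE. It was called lower in CPE against T by limma voom (0.022) and by edgeR without CPE library 1 (0.028).

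Dgat1 and Dgat2 encode unrelated enzymes for the last step, the joining of the final fatty acid to diacylglycerol, and Dgat2 is known for using newly made fatty acids. Dgat2 was at 205.7, 224.7 and 179.5 CPM in T, 55.94, 48.8 and 46.8 in LPE, and 95.54, 72.68 and 76.02 in CPE. The media did not overlap, with LPE lowest and CPE between. Dgat2 fell, with -2.01 on the log2 scale (SE 0.18, edgeR adjusted p = 9.8e-07) in LPE and -1.32 (SE 0.18, adjusted p = 3.5e-05) in CPE against T. CPE exceeded LPE by 0.69 (SE 0.18, adjusted p = 0.013), which was lost without CPE library 1 (0.052), with the 6 libraries alone (0.098) and in limma voom with sample weights (0.14).

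Dgat1 had 92.1 ± 8.23 CPM in T, 112 ± 17.8 in LPE, and 66.4 ± 18.8 CPM in CPE, and was called by edgeR in CPE against LPE (-0.76 on the log2 scale, SE 0.22, edgeR adjusted p = 0.022). That call was lost without LPE library 2 or 3 or CPE library 2 or 3 (0.052 to 0.091) and with the 6 libraries alone (0.063). In CPE against T, Dgat1 was called lower by limma voom (-0.62, adjusted p = 0.0092) and by edgeR without CPE library 1 (-0.73, adjusted p = 0.019). Reads on the other strand were 3.948% of those at Dgat1. The ratio of Dgat2 to Dgat1 reads, also chosen after the values were seen and not tested, was 1.779 to 2.471 in T, 0.3873 to 0.6098 in LPE and 1.087 to 1.43 in CPE.

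Plin2, which encodes the droplet coat protein perilipin 2, lay on opposite sides of T in LPE and CPE. It was at 76.94, 70.65 and 84.63 CPM in T, 40.91, 27.04 and 39.74 in LPE, and 119.1, 102.4 and 128.2 in CPE, and the media did not overlap. The log2 fold change was -1.11 (SE 0.22, edgeR adjusted p = 0.0012) in LPE against T and 1.70 (SE 0.21, adjusted p = 5.1e-05) in CPE against LPE. The rise in CPE against T was 0.59 (SE 0.21, adjusted p = 0.042). It was lost on leaving out any 1 of the T and CPE libraries (0.051 to 0.16), with no count filter (0.057) and with either-strand reads (0.051).

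Of the 3 genes for mitochondrial oxidation, edgeR called Acadm, the medium-chain acyl-CoA dehydrogenase gene. Acadm was at 33.83, 38.8 and 31.62 CPM in T, 46.67, 41.34 and 30.45 in LPE, and 76.67, 77.45 and 72.15 in CPE. CPE lay above both other media, which overlapped. Acadm rose by 1.12 on the log2 scale (SE 0.25, edgeR adjusted p = 0.0025) in CPE against T and was 0.93 (SE 0.24, adjusted p = 0.013) higher in CPE than in LPE. Cpt1a, which admits fatty acids to mitochondria, had 10.97 ± 1.49 CPM in T, 7.36 ± 3.87 in LPE, and 6.57 ± 3.21 CPM in CPE. Cpt2, its partner in the inner membrane, had 20.2 ± 3.36, 31.6 ± 4.29 and 37.2 ± 12.5 CPM, with a log2 fold change of 0.88 (95% interval 0.07 to 1.70, adjusted p = 0.055) in CPE against T. Cpt2 was called there by limma voom (0.027), with the 6 libraries alone (0.031) and without LPE library 2 (0.036).

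Across the steps, 8 genes were higher in both media than in T and not called between CPE and LPE, namely Acly, Fasn, Mid1ip1, Scd1, Fads1, Fads2, Elovl5 and Lpin1, and Me1 was higher in both and highest in CPE. These are the calls of the main fit. In some alternatives Fasn and Lpin1 were called lower in CPE than in LPE, and the rise of Lpin1 in CPE against T was lost in others. Elovl7, Acsl1 and Acadm were higher in CPE than in either other medium. Of the 11 calls in CPE against LPE, those of Acsl1, Acsl3, Plin2 and Acadm held in every alternative that was run. The call of Elovl7 also held, but follows from its entry through CPE alone. The 11 genes that edgeR called in no comparison of the 9-library fit were Slc25a1, Acss2, Acaca, Elovl6, Acsl4, Acsl5, Gpam, Agpat3, Lpin2, Cpt1a and Cpt2.

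Around the pathway, 92 further genes were listed by role, of which 88 were in the tables and 65 were tested. Their counts stand beside 29.7% of all tested genes called in LPE against T, 32.1% in CPE against T and 17.8% in CPE against LPE. These lists too were chosen with earlier results of these data known. Among 14 tested genes of sterol and lipogenic transcription control, 4 rose and 3 fell in LPE against T, and 4 rose and 2 fell in CPE against T. In CPE against LPE, edgeR, DESeq2 and limma voom each called 0 of the 14, with 2 at an unadjusted p under 0.05 in edgeR. Srebf1, the lipogenic factor gene, was at 72.03, 67.18 and 60.45 CPM in T, 204.3, 176.9 and 261.5 in LPE, and 225, 246.2 and 210.3 in CPE. T lay below all others, and the log2 fold change was 1.69 (edgeR adjusted p = 2.9e-06) in LPE and 1.77 (adjusted p = 1.6e-06) in CPE. Srebf2, its sterol-sensing relative, rose by 1.40 (adjusted p = 2.9e-07) and 1.37 (adjusted p = 2.6e-07). Insig1, which retains these factors in the endoplasmic reticulum and is itself their target, rose by 1.24 (adjusted p = 2.3e-06) and 1.13 (adjusted p = 4.5e-06). Mlx, the partner of ChREBP, fell, with -0.98 (adjusted p = 0.0035) in LPE and -1.43 (adjusted p = 0.00016) in CPE, as did Nr1h2, which encodes the liver X receptor beta (-1.25, adjusted p = 0.0016, and -1.09, adjusted p = 0.0037).

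**Figure D5:**
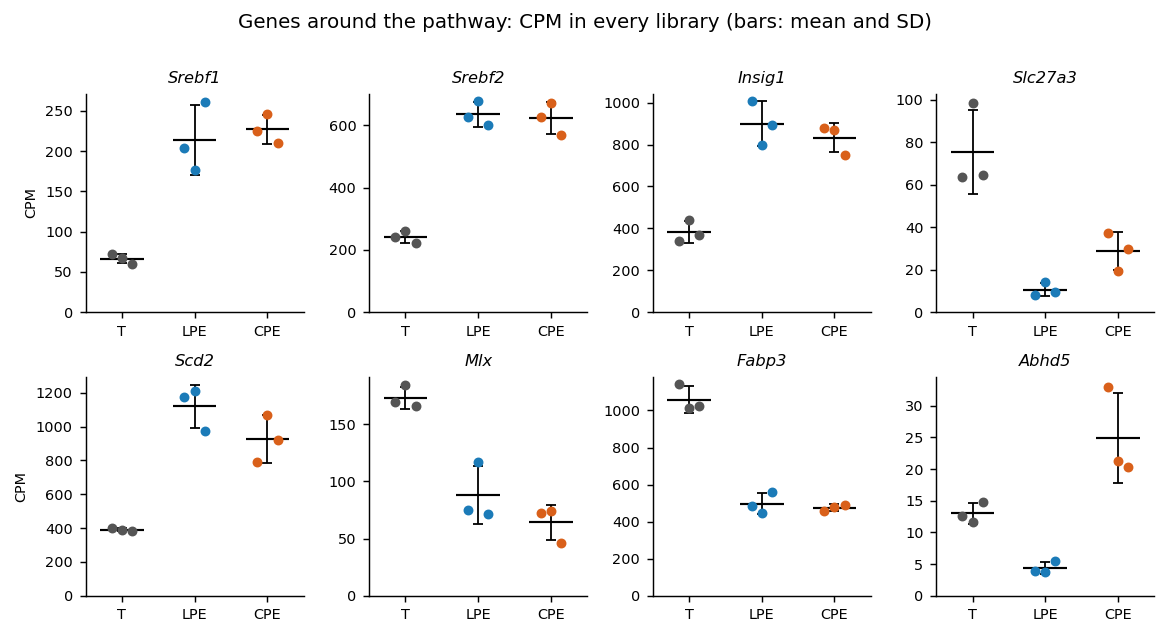
CPM (y axis) in each library of 8 genes around the pathway, with the mean and SD of each medium. Srebf1 lies at 60.45 to 72.03 CPM in T and 176.9 to 261.5 in the other media, while Fabp3 and Mlx are lower there than in T.

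Of 8 tested genes for fatty acid uptake and binding, 2 rose and 2 fell in LPE, and 2 rose and 3 fell in CPE. Fabp3, which encodes a cytosolic fatty acid carrier, fell from 1059 CPM in T to 497 in LPE and 475 in CPE (log2 fold changes -1.09 and -1.16, edgeR adjusted p = 2e-06 and 9.1e-07). Slc27a3, of the fatty acid transport protein family, fell from 75.6 CPM to 10.6 in LPE and 28.8 in CPE (-2.82 and -1.39, adjusted p = 2.4e-05 and 0.0039).

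Triglyceride breakdown had 3 tested genes, of which 2 fell in LPE. In CPE against T edgeR and DESeq2 called 0 of the 3 and limma voom called 1 (Mgll), which edgeR had at an unadjusted p under 0.05. The lipases themselves were hardly counted. Pnpla2, which encodes the main triglyceride lipase, had 1 read in T library 1 and 0 in every other library. Lipe had at most 12 reads in any library, and neither gene was tested. Abhd5, the activator of the main triglyceride lipase, was at 12.55, 11.58 and 14.88 CPM in T, 3.836, 3.73 and 5.449 in LPE, and 33.03, 21.35 and 20.29 in CPE. The media did not overlap, in the same order as for Plin2. Abhd5 was higher in CPE than in LPE by 2.51 (edgeR adjusted p = 0.0027). Its fall in LPE against T (-1.58, adjusted p = 0.028) was lost without any T library or LPE library 1 (0.054 to 0.12). That call was also lost with the 6 libraries alone (0.079), no count filter (0.054), a replicate block (0.05) and in limma voom (0.1).

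The other lists are given by count, beside 29.7% of all tested genes called in LPE against T and 32.1% in CPE against T. Of 18 tested genes of fatty acid oxidation beyond the members, 2 rose and 2 fell in LPE, and 2 rose and 3 fell in CPE. Acadl rose by 1.92 (edgeR adjusted p = 0.00045) and 1.58 (adjusted p = 0.0018), and Hadh fell by 2.31 (adjusted p = 8.7e-06) and 1.12 (adjusted p = 0.0024) on the log2 scale. Of 8 other desaturation, elongation and thioesterase genes, 2 rose and 1 fell in LPE, and 1 rose and 1 fell in CPE. Those that rose in LPE were Scd2 and Acsl6, and the call of Acsl6 follows from its entry through LPE alone. Of 5 other glycerolipid and droplet genes, 1 (Lpin3) rose in LPE. In CPE against T edgeR called 0, with 2 at an unadjusted p under 0.05 (Agpat4 and Fitm2), DESeq2 called those 2 and limma voom 3. Agpat4 had 3, 9 and 4 reads in T, 9, 0 and 6 in LPE, and 19, 101 and 75 in CPE. It passed the filter through CPE, so its calls follow from that choice. Of 4 other NADPH sources, 1 (Mthfd1) fell in LPE, lost without T library 2 (edgeR adjusted p = 0.062), and in CPE against T the 3 tools each called 0, with 0 at an unadjusted p under 0.05. Of 5 genes of mitochondrial fatty acid synthesis edgeR called 0 in each comparison, with 2 at an unadjusted p under 0.05 in LPE against T and 0 in the others, and limma voom called 1 (Ndufab1) in LPE against T.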

How the data were processed

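The submitters' processing notes name CASAVA 1.8.2, Trimmomatic 0.33, STAR 2.5.1, DESeq2 and the build rn6. The annotation and the DESeq2 version are "not given in the sources used here". Per the labels, ribosomal RNA was removed and a directional kit was used. The tables deposited by the authors hold unnormalized read counts per gene, and column 4, the gene-strand count, was used, without its summary lines. Symbols were used as deposited.

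Counts of all 9 libraries were fitted with edgeR 4.0.16 in R 4.3.3 (TMM factors, filterByExpr with at least 10 counts and 15 in total, quasi-likelihood F test, Benjamini-Hochberg over 9130 genes). CPM uses the TMM factors. SE is the log2 fold change over the root of F. Intervals of 95% use SE. Floors (3 counts per library) cover only counting error. The method was tested on simulated data with the same spread per gene in all media. That test does not cover the unequal spread of T, LPE and CPE seen here. Alternatives included DESeq2 1.42.0 and limma 3.58.1.

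Every member is named, and values in each library are given for members called with at least a 2-fold change. The members and gene lists were chosen with earlier results of these data known. Promoter windows came from RefSeq on GRCr8, another build. A result of the gene lists is not reported here.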

Additional observations from a re-analysis of the deposited data

How the results depend on the processing

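Of the members' calls, 12 of 15 in LPE against T, 14 of 18 in CPE against T and 5 of 11 in CPE against LPE held in every alternative run (RLE, upper quartile or no scaling, 2 count filters, DESeq2, limma voom, the 6 libraries compared, either-strand reads, a replicate block and each library left out), and 0 of the called members reversed. Mid1ip1 and Elovl7 are among those kept, through the media that brought them into the fit. With the 6 LPE and CPE libraries alone, 6 members were called between CPE and LPE in place of 11, and leaving out single libraries gave 7 (without LPE library 3 or CPE library 1) to 11. The calls lost there were Me1, Elovl1, Tecr, Hacd3, Dgat1 and Dgat2, while Fasn was gained. T libraries vary less than the others and enter the shared spread of the 9-library fit.

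With a replicate block, 15, 18 and 11 members and 2558, 2751 and 1500 genes were called in LPE against T, CPE against T and CPE against LPE. Deviations of same-numbered libraries correlated at -0.027 to 0.012, so the numbers were not used as pairs. In limma voom the median log2 fold change of all genes in LPE against T was -0.13 in place of -0.03. Acaca in LPE against T was called in DESeq2 (adjusted p = 0.032) and limma voom (0.017). By edgeR it was called there with RLE scaling (0.046), no count filter (0.024), the 6 libraries alone (0.0085), and without LPE library 1 (0.044) or CPE library 1 (0.0075). Precision is limited by depth for Mid1ip1, Elovl5, Elovl6, Elovl7 and Cpt1a, which had few reads.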
